A study of Mus musculus with 97 samples.

Results

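The change in gene expression between embryonic day 13 (E13) and embryonic day 16 (E16) was followed in cortical cells of mice in which every cell lacked Cdk5r1. These KO-Cdk5r1-MADM animals carried the mutated allele on both copies of chromosome 11 (MADM-11 GT,Cdk5r1/TG,Cdk5r1 together with Emx1-Cre, strain CD1). The comparison took all libraries of this genotype at these ages, 5 at E13 and 11 at E16, which made 16 of the 97 libraries in the series. MADM (mosaic analysis with double markers) labels cells through Cre-driven recombination between chromosomes. Emx1-Cre drives it in the progenitors of the dorsal telencephalon, so that the labelled cells belong to the cortical projection-neuron lineage, including radial glia, their neuronal offspring and later glia. Green (GFP+) cells were sorted from 1 cerebral cortex per replicate, and polyadenylated RNA was sequenced with a SMART-Seq v2 protocol from a small number of cells. Each replicate was therefore a separate cortex, and the p-values below measure the spread between these cortices. In the same series, control-MADM animals (MADM-11 GT/TG;Emx1-Cre) carried no mutation, and Cdk5r1-MADM animals (MADM-11 GT/TG,Cdk5r1;Emx1-Cre) carried mutant green cells in a cortex that was otherwise heterozygous or wild-type. All 3 genotypes shared the MADM-11 cassettes, Emx1-Cre and the green sort.

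Cdk5r1 encodes p35, the main neuronal activator of the kinase CDK5, which phosphorylates cytoskeletal and adhesion proteins and is needed for newborn neurons to migrate past their predecessors into the cortical plate. In the mouse cortex at E13, most cells of the lineage are radial glia, intermediate progenitors and early-born neurons of the deep layers and subplate. By E16, upper-layer neurons are being born, the earlier neurons are extending axons and dendrites, and radial glia begin to acquire glial properties. The question addressed here was which genes change over these days when p35 is absent from the whole tissue.

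The libraries held 3787965 to 4877750 reads assigned to genes at E13 (median 4748165) and 1094174 to 6743597 at E16 (median 4573355). At E13, 70.1 to 72.7% of reads mapped uniquely. At E16 the share was 70.1 to 74.0% in replicates 1 to 7 and 63.5 to 66.8% in replicates 8 to 11. Reads that were ambiguous between genes made up 6.67 to 8.93% in replicates 8 to 11 and at most 6.24% in replicates 1 to 7. E16 replicates 8 to 11 stood apart from the other 7. On the first principal component, which held 55% of the variance of 500 genes, they lay at 41.8 to 59.3, the other E16 libraries at -9.40 to 8.09 and the E13 libraries at -43.7 to -25.7. Whether the published analysis used these 4 libraries is not stated in the sources used here. Correlations of log expression were 0.902 to 0.974 among E16 replicates 1 to 7, 0.951 to 0.971 among the E13 libraries and 0.765 to 0.896 between E16 replicates 1 to 7 and 8 to 11. The summed level of 13 interneuron markers was 1025 to 1202 counts per 1000000 assigned reads (CPM) in replicates 8 to 11, against 67.0 to 197 in replicates 1 to 7 and 78.7 to 114 at E13. Erythroid markers summed to 3156 to 7270 CPM in replicates 8 to 11, against 14.8 to 695 in replicates 1 to 7 and 11.2 to 197 at E13. Microglial markers summed to 135 to 863 CPM, against 13.7 to 81.6 and 3.96 to 17.5, and mural markers to 276 to 393 CPM, against 5.47 to 54.8 and 1.46 to 18.7. Cortical interneurons, blood and vessels arise outside the Emx1 lineage, and the part of such RNA in the results was not tested. With all libraries 12 of 13 interneuron, 10 of 10 microglial, 5 of 8 erythroid and 4 of 6 mural markers were called higher at E16 in the test described below, and without replicates 8 to 11 it was 6 of 10, 6 of 6, 0 of 8 and 0 of 2. The numbers of genes called within KO-Cdk5r1-MADM are therefore given with and without replicates 8 to 11. The same holds for lists below whose number of called genes or sign of the median changed when they were left out. It also holds for named genes whose call changed or whose log2 fold change moved by more than 1.5 times. In the comparison of genotypes, only the test of the difference in change is also given without them.

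The targeted gene was examined as a check of the labels. Cdk5r1 (ENSMUSG00000048895, mm10 chr11:80477023-80481184, plus strand) was at 10.7, 17.1, 16.3, 27.9 and 12.1 CPM in the E13 libraries of KO-Cdk5r1-MADM and at 40.4 to 65.5 CPM (median 53.9) in the 11 E16 libraries. The mean in control-MADM was 65.5 CPM at E13 (range 14.7 to 131, n = 8) and 199 CPM at E16 (range 97.7 to 244, n = 12). Cdk5r1-MADM cells had means of 26.4 CPM at E13 (n = 6) and 68.4 CPM at E16 (n = 7). At E16 the KO-Cdk5r1-MADM libraries did not overlap with the control-MADM libraries, whereas at E13 they did. The allele removes only part of the gene and the deposited counts cover all of it, so reads from the remaining sequence are still counted and the whole-gene count does not measure the deletion itself. Within KO-Cdk5r1-MADM the remaining reads rose by 1.79 ± 0.20 (log2 ± SE, adjusted p = 4.48e-07), and the E13 and E16 libraries did not overlap.

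The kinase gene Cdk5 and the gene of an alternative activator, Cdk5r2, rose as well. Cdk5, the catalytic subunit, was at 78.1, 84.2, 102, 86.1 and 84.7 CPM at E13 and at 121 to 219 CPM (median 166) at E16, a log2 fold change of 1.05 ± 0.14 (adjusted p = 4.31e-06). Cdk5r2, which encodes the related activator p39, was at 3.58, 1.51, 2.50, 1.44 and 3.96 CPM at E13 and at 12.5 to 39.5 CPM (median 18.9) at E16, a log2 fold change of 3.28 ± 0.40 (adjusted p = 1.6e-06). All 11 E16 libraries lay above all 5 E13 libraries for both genes. The increase of Cdk5r2 was 2.81 without replicates 8 to 11, in which it reached 24.2 to 39.5 CPM. Both genes rose in the other genotypes too. Mean Cdk5 went from 86.5 to 159 CPM in control-MADM and from 93.2 to 169 CPM in Cdk5r1-MADM. Mean Cdk5r2 went from 2.97 to 13.8 CPM in control-MADM and from 4.30 to 22.8 CPM in Cdk5r1-MADM.

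Across the transcriptome, 12890 genes were tested with edgeR and 6136 of them (47.6%) were called at an adjusted p below 0.05. Of these, 3334 (25.9%) rose and 2802 (21.7%) fell from E13 to E16. A change of more than 2-fold (log2 beyond 1) was found for 1873 genes that rose (14.5%) and 1285 that fell (9.97%). Without replicates 8 to 11, 6857 of 12589 genes were called (54.5%), 3414 higher (27.1%) and 3443 lower (27.3%). By more than 2-fold, 1592 rose (12.6%) and 1451 fell (11.5%) without these replicates. The same 2950 genes rose and the same 2688 fell in both fits, and none was called in opposite directions. Complete separation of the 5 E13 from the 11 E16 libraries was seen for 1162 genes that were higher at E16 (9.01%) and 1673 that were lower (13%). The median log2 fold change over all tested genes was 0.02. The counts given for each gene group below are to be read against these shares. Genes in the cell type marker lists, such as Notch1, Mapt, Tubb3 and Tnc, were left out of the pathway lists. In sorted bulk samples, fewer cells of a type and less RNA per cell cannot be told apart.

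Markers of progenitors fell and markers of neurons rose. The summed level of 13 radial glia markers was 5998 to 7054 CPM at E13 (median 6186), 2956 to 3825 CPM in E16 replicates 1 to 7 (median 3227) and 2244 to 2657 CPM in replicates 8 to 11. Intermediate progenitor markers went from 2717 to 3232 CPM to 1144 to 1572 and 636 to 857 CPM in the same 3 sets. Markers of postmitotic neurons went the other way, from 2501 to 3810 CPM at E13 to 7896 to 9938 CPM in E16 replicates 1 to 7 and 8874 to 9457 CPM in replicates 8 to 11. For all 3 classes no E13 library overlapped with any E16 library.

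**Figure D1:**
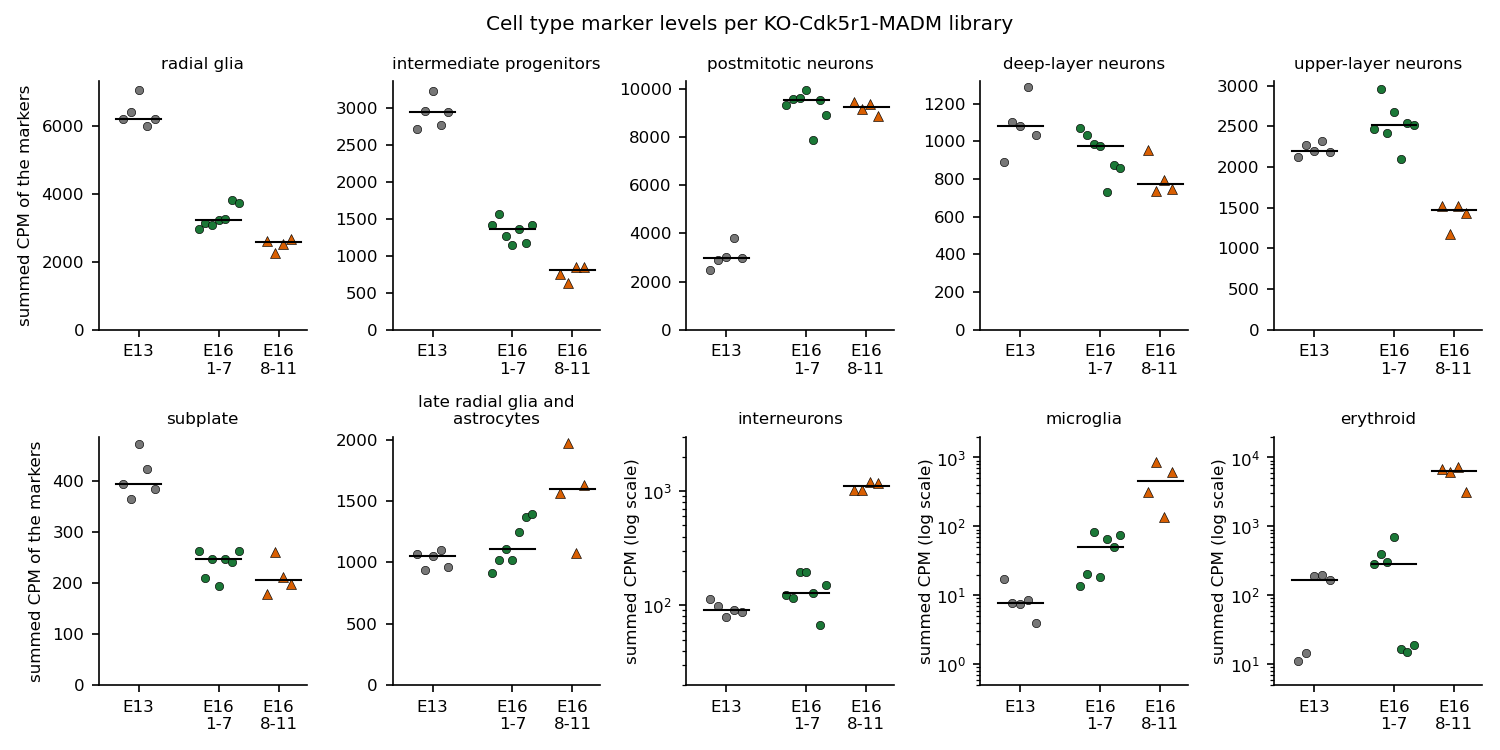
Summed CPM of the marker genes of 10 cell types in each KO-Cdk5r1-MADM library (grey circles, E13; green circles, E16 replicates 1 to 7; orange triangles, E16 replicates 8 to 11; bars, medians; log scale for interneurons, microglia and erythroid cells). Radial glia and intermediate progenitor markers were lower and postmitotic neuron markers higher in all 11 E16 libraries, while interneuron, microglial and erythroid markers set replicates 8 to 11 apart.

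Among the radial glia markers, 11 of 13 fell and 2 rose, with a median log2 fold change of -1.79, and the counts were the same without replicates 8 to 11. Hes1, a Notch effector that maintains progenitors, was at 800, 822, 847, 686 and 732 CPM at E13 and at 89.2 to 148 CPM (median 113) at E16, and fell by 2.60 on the log2 scale (SE 0.11, adjusted p = 1.04e-11). Sox9, a transcription factor of neural stem cells, went from 703, 799, 860, 841 and 840 CPM to 136 to 276 CPM (median 180; log2 fold change -1.93 ± 0.13, adjusted p = 8.11e-10). Neither gene had overlapping groups. Nes, which encodes the intermediate filament nestin, changed by -1.84 ± 0.15 and Emx2, a patterning factor of the dorsal telencephalon, by -2.07 ± 0.17. The 2 members that rose, named after their values were seen, were Fabp7 (1.02 ± 0.15, adjusted p = 1.72e-05) and the glutamate transporter gene Slc1a3 (1.12 ± 0.21, adjusted p = 2.26e-04), and both are also expressed in astrocytes.

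Of 12 intermediate progenitor markers, 8 fell and 1 rose (median -1.04), and 9 fell and 1 rose without replicates 8 to 11 (median -0.82). Dll1, the Notch ligand presented by committed progenitors, was at 183, 171, 222, 190 and 163 CPM at E13 and at 17.1 to 38.5 CPM (median 32.5) at E16, and fell by 2.53 on the log2 scale (SE 0.17, adjusted p = 1.06e-09). Gadd45g, Btg2 and the proneural factor gene Neurog1 changed by -2.49 ± 0.21, -1.21 ± 0.14 and -2.99 ± 0.48. The member that rose was Insm1 (0.99 ± 0.24, adjusted p = 1.94e-03), a zinc finger factor of delaminating progenitors. For Eomes, the defining marker of the class, the E16 range of 16.5 to 216 CPM overlapped with the E13 range of 154 to 264 CPM, and the change of -0.86 ± 0.39 did not pass the threshold (adjusted p = 0.0808), whereas without replicates 8 to 11 it was -0.43 and passed (adjusted p = 0.0251). Insm1 and Eomes were named after their values were seen.

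Of 15 postmitotic neuron markers, 10 rose and 1 fell (median 1.53), and 12 rose and 1 fell without replicates 8 to 11. The member that fell was the same in both fits, and its fall was not more than 2-fold with all libraries. In 1 marker of this list all E16 libraries were below all E13 libraries. Mapt, which encodes the axonal microtubule-binding protein tau, was at 74.3, 109, 119, 136 and 88.2 CPM at E13 and at 708 to 1265 CPM (median 1083) at E16, a log2 fold change of 3.41 ± 0.16 (adjusted p = 2.19e-11). Camk2b, a subunit of a calcium-dependent synaptic kinase, went from 10.7, 17.8, 12.5, 29.1 and 11.1 CPM to 188 to 265 CPM (median 216; 3.92 ± 0.21, adjusted p = 7.98e-11). Every E16 library exceeded every E13 library for both. Stmn2 and Tubb3, 2 genes of the neuronal microtubule system, rose by 2.32 ± 0.15 and 1.89 ± 0.16.

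Layer markers did not move together. In the upper-layer list, 6 of 13 tested markers rose and 1 fell (median 0.63), and 9 rose and 1 fell without replicates 8 to 11 (median 0.85). The member that fell did so by more than 2-fold and was called in both fits. In 1 marker of this list all E16 libraries were below all E13 libraries. Cux2, a homeobox gene of upper-layer neurons, was at 23.4, 29.1, 24.4, 39.4 and 24.8 CPM at E13 and at 99.2 to 167 CPM (median 146) at E16 (2.38 ± 0.15, adjusted p = 4.92e-10). The E13 and E16 libraries were separate, and replicates 8 to 11 were the lowest 4 of the E16 libraries. Pou3f1 and Lmo4 rose by 2.71 ± 0.37 and 1.24 ± 0.17.

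In the deep-layer list 4 of 11 markers rose, 3 fell and 4 were not called (median 0.05, and -0.08 without replicates 8 to 11). Crym and Ldb2, both expressed in maturing corticofugal neurons, rose by 3.84 ± 0.37 and 2.81 ± 0.28. Fezf2, which specifies subcerebral projection neurons and is also active in early progenitors, was at 385, 454, 529, 395 and 377 CPM at E13 and at 129 to 293 CPM (median 193) at E16, and fell by 0.98 on the log2 scale (SE 0.16, adjusted p = 4.50e-05). Tle4, a corepressor of corticothalamic neurons, changed by -0.85 ± 0.21 (adjusted p = 2.39e-03) with overlapping ranges. Of 7 tested subplate markers, 4 fell and 1 rose (median -0.45), and 4 of 6 fell and 2 rose without replicates 8 to 11 (median -0.75), when Tmem163 passed as well (0.98). Lpar1, a lysophosphatidic acid receptor gene, was at 98.0 to 109 CPM at E13 and at 15.9 to 36.3 CPM at E16 (-1.89 ± 0.14, adjusted p = 2.23e-09), Ccn2 and Nr4a2 changed by -1.45 ± 0.31 and -0.85 ± 0.26, and Hs3st4 rose from 0.211 to 1.44 CPM to 1.93 to 12.8 CPM.

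Genes of the cell cycle fell together. All 32 tested genes of DNA replication fell (median log2 fold change -1.68, 29 of them by more than 2-fold), as did all 28 genes of mitosis (median -1.85, all 28 by more than 2-fold). In 31 of the 32 replication genes and 26 of the 28 mitosis genes, all 11 E16 libraries were below all 5 E13 libraries. Ube2c, the ubiquitin-conjugating enzyme of the anaphase-promoting complex, was at 717, 634, 839, 489 and 682 CPM at E13 and at 124 to 239 CPM (median 187) at E16, and fell by 1.69 on the log2 scale (SE 0.12, adjusted p = 2.23e-09). The survivin gene Birc5, the mitotic kinesin gene Kif20a and the cyclin gene Ccna2 changed by -2.02 ± 0.15, -1.70 ± 0.14 and -1.73 ± 0.14. Rrm2, which supplies deoxyribonucleotides, went from 440, 381, 423, 337 and 433 CPM to 80.3 to 116 CPM (median 96.7; -1.94 ± 0.10, adjusted p = 4.47e-11). Mcm6, a subunit of the replicative helicase, went from 309, 280, 335, 280 and 293 CPM to 68.2 to 108 CPM (median 83.8; -1.70 ± 0.11, adjusted p = 8.11e-10). The licensing factor gene Cdt1 and the DNA ligase gene Lig1 changed by -2.39 ± 0.17 and -1.68 ± 0.13.

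Regulators of the cycle moved less uniformly, with 11 of 21 lower, 1 higher and 9 not called (median -0.66), and 12 lower and 1 higher without replicates 8 to 11. Ccnd2, a D-type cyclin enriched in cortical progenitors, was at 1739, 1760, 2158, 1316 and 1777 CPM at E13 and at 253 to 586 CPM (median 430) at E16 (-1.91 ± 0.16, adjusted p = 1.15e-08). E2f3 and E2f2, which encode E2F transcription factors, changed by -1.98 ± 0.22 and -2.81 ± 0.33, and Cdk2 by -1.47 ± 0.16.

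The promoters of these genes carry known cell cycle elements. Genes of mitosis are classically controlled through the cell cycle genes homology region (CHR), here searched as TTTGAA on both strands, and genes of DNA replication through E2F sites, here searched as GCGCCAAA or GCGGGAAA on both strands. The promoter windows were taken from RefSeq (GRCm38.p6) and ran from 250 bases before to 50 bases after the start of the gene. Of the 12890 tested genes, 9710 had such a window. The CHR letters were found in 18 of 24 mitosis promoters (75%), 4 of 25 replication promoters (16%), 214 of 967 promoters of genes that fell by more than 2-fold (22.1%) and 1316 of all 9710 promoters (13.6%). The E2F letters were found in 0 of 24 mitosis promoters, 9 of 25 replication promoters (36%), 7.55% of the genes that fell by more than 2-fold and 353 of all 9710 promoters (3.64%). The genes that rose by more than 2-fold held CHR letters in 13.5% and E2F letters in 1.35% of their promoters. The CCAAT box, which often lies beside a CHR, was found in 83.3% of mitosis, 72% of replication and 43.4% of all promoters. A match of letters is a description of the sequence and does not show that a factor binds there.

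**Figure D2:**
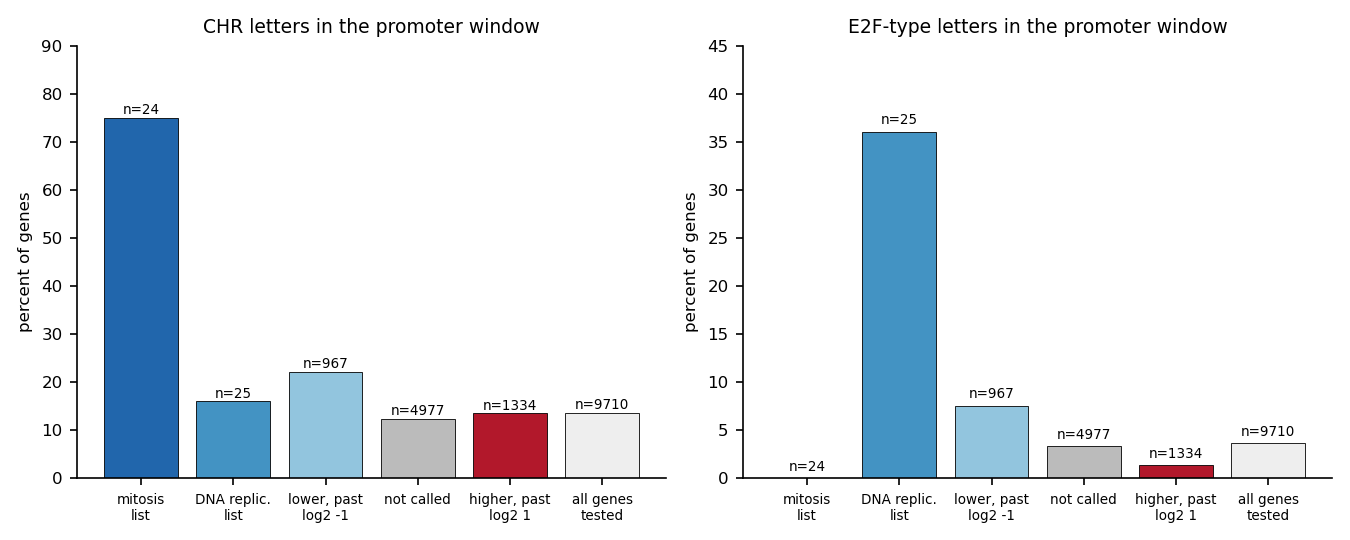
Percent of genes whose 300-base promoter window held the CHR letters (left) or the E2F-type letters (right) in 6 gene groups, with n the number of genes that had a window. The CHR letters were found in 75% of the mitosis list against 13.6% of all tested genes, and the E2F-type letters in 36% of the replication list against 3.64%.

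Among mitosis genes whose promoter held the CHR within 120 bases before to 30 bases after the start, 4 with small adjusted p are printed. They show where the element lies in genes that fell. Not every gene of the list could be chosen, so these need not be the 4 with the smallest adjusted p. Capitals mark the CHR, read on either strand, and each sequence is given 5′ to 3′ on the strand of the gene. The stretches are chr2:164769809-164769958 (plus strand), chr4:118437314-118437463 (minus strand), chr9:83834569-83834718 (plus strand) and chr15:99651627-99651776 (minus strand).
Ube2c: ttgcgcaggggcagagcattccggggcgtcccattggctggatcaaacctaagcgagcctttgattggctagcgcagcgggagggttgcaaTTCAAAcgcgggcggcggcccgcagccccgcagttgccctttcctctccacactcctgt
Cdc20: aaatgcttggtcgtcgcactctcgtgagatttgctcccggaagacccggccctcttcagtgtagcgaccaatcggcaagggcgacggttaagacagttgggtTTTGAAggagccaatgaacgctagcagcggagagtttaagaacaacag
Ttk: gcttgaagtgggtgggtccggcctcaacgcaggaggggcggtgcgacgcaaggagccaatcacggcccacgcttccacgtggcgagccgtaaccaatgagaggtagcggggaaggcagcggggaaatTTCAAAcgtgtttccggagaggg
Racgap1: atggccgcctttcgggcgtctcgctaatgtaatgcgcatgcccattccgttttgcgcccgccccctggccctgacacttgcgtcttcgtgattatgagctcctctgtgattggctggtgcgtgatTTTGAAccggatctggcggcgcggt
Cdc20, the activator of the anaphase-promoting complex, changed by -1.46 ± 0.13, the spindle checkpoint kinase gene Ttk by -2.13 ± 0.21 and the cytokinesis gene Racgap1 by -1.26 ± 0.14. The CHR started 29 bases before the gene start in Ube2c and 18 bases before it in Cdc20. In Ttk and Racgap1 it lay after the gene start, beginning at bases 8 and 6 counted from it.

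The replication genes chosen in the same way for the E2F letters, marked by capitals, were Mcm6 (chr1:128359676-128359825, minus strand), Mcm3 (chr1:20820283-20820432, minus strand) and Rfc3 (chr5:151651179-151651328, minus strand).
Mcm6: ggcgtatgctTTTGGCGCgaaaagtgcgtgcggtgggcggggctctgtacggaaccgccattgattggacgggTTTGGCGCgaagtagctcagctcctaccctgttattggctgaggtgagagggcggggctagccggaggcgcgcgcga
Mcm3: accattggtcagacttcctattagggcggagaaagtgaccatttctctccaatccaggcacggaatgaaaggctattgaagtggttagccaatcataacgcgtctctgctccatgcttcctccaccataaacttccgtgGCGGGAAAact
Rfc3: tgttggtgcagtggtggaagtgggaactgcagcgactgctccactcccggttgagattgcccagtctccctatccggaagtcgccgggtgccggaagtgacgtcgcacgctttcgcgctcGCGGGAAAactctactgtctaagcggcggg
The Mcm6 stretch held the letters at 2 places, and those of Mcm3 and Rfc3 at 1. Mcm3, another helicase subunit, changed by -2.09 ± 0.17 and the clamp loader gene Rfc3 by -0.96 ± 0.14 (adjusted p = 1.24e-05).

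Notch and Wnt signalling maintain cortical progenitors, and members of both pathways changed in either direction. Of 24 Notch pathway genes, 12 fell and 6 rose (median -0.37), and 13 of 23 fell and 6 rose without replicates 8 to 11. This list does not hold Notch1, Hes1, Hes5, Dll1, Dll3 and Mfng, which were counted among the progenitor markers above. Hey1, a Notch target, was at 200, 223, 250, 186 and 207 CPM at E13 and at 24.9 to 51.9 CPM (median 38.8) at E16 (-2.35 ± 0.13, adjusted p = 1.5e-10), and the receptor gene Notch3 changed by -1.27 ± 0.24. The ligand gene Jag2 and the fringe glycosyltransferase gene Rfng rose by 2.26 ± 0.38 and 1.22 ± 0.15. Of 31 tested Wnt pathway genes, 13 fell and 3 rose (median -0.62), and 17 of 30 fell and 4 rose without replicates 8 to 11 (median -0.64). The transcription factor genes Tcf7l1 and Lef1, which act with beta-catenin, changed by -2.77 ± 0.27 and -2.07 ± 0.30. The Wnt receptor gene Fzd9 changed by -1.52 ± 0.24, while Porcn, which encodes the enzyme that acylates Wnt ligands, rose by 1.40 ± 0.19.

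Genes tied to the age of progenitors fell. In the list of temporal identity factors and the Lin28 axis, 13 of 21 tested genes fell and 2 rose (median -1.07), and 1 rose without replicates 8 to 11. Hmga2, a chromatin protein of young neural stem cells, was at 56.9, 52.0, 34.0, 8.61 and 28.5 CPM at E13 and at 0 to 2.07 CPM (median 0.866) at E16. Hmga2 was counted among the radial glia markers above and is not a member of this list. Dmrta1, a doublesex-family factor of cortical progenitors, was at 31.8 to 66.3 CPM at E13 and at 0 to 3.88 CPM at E16. Igf2bp2 and Igf2bp1, which encode RNA-binding proteins of the Lin28 axis, changed by -2.67 ± 0.17 and -2.14 ± 0.18, and Sall1 by -2.38 ± 0.13. No E16 library reached an E13 library for any of these 5 genes. Lin28a and Lin28b did not reach the count minimum. Lin28b was at 1.23 to 5.78 CPM at E13, at 0 to 0.182 CPM in E16 replicates 1 to 7 and at 0.229 to 3.71 CPM in replicates 8 to 11, and Lin28a was at most 0.421 CPM in any library. Among the nuclear factor I genes, which mark later progenitors, Nfix rose by 0.80 ± 0.28 (adjusted p = 0.0253), Nfia changed by -1.57 ± 0.56 (adjusted p = 0.0314) and Nfib did not pass the threshold (-1.15 ± 0.48, adjusted p = 0.0568; -0.72 and 0.0811 without replicates 8 to 11). All 3 had overlapping ranges, and Nfia was at 17.7 to 52.9 CPM in replicates 8 to 11 against 88.0 to 392 CPM in replicates 1 to 7.

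Subunits of the BAF chromatin remodelling complex that are known to be exchanged in neuronal differentiation moved in opposite directions. Actl6a, the subunit of progenitors, was at 221, 222, 267, 200 and 276 CPM at E13 and at 64.5 to 129 CPM (median 106) at E16 (-1.08 ± 0.12, adjusted p = 7.14e-07). Actl6b, its neuronal counterpart, was at 34.5, 40.2, 39.7, 46.9 and 37.8 CPM at E13 and at 225 to 355 CPM (median 258) at E16 (2.89 ± 0.14, adjusted p = 1.95e-11). The groups were separate for both, in opposite directions. The pair Phf10 and Dpf1 moved alike, with Phf10 of progenitors at -1.11 ± 0.29 (adjusted p = 3.59e-03) and Dpf1 of neurons at 1.55 ± 0.18 (adjusted p = 1.02e-06). The neuronal subunit gene Ss18l1 rose by 1.52 ± 0.18, and its progenitor counterpart Ss18, named after its values were seen, changed by -0.94 ± 0.12. Of the 22 remodelling subunits as a whole, 7 rose, 6 fell and 9 were not called (median 0.08), and 9 rose and 7 fell without replicates 8 to 11.

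Of 24 Polycomb and DNA methylation genes, 13 fell and 1 rose (median -0.48). Ezh2, the histone H3K27 methyltransferase of dividing cells, was at 651, 755, 510, 512 and 506 CPM at E13 and at 158 to 390 CPM (median 196) at E16 (-1.30 ± 0.17, adjusted p = 2.89e-06). Its partner Suz12 changed by -2.30 ± 0.29, and the chromobox gene Cbx2 by -1.25 ± 0.18. The member that rose, named after its values were seen, was Ezh1 (0.91 ± 0.26, adjusted p = 6.54e-03), the related methyltransferase of non-dividing cells.

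Of 26 neural splicing and RNA regulators, 10 rose and 8 fell (median -0.06), and 10 and 9 did without replicates 8 to 11 (median close to 0). Rest, the repressor of neuronal genes, was at 115, 116, 106, 111 and 148 CPM at E13 and at 7.42 to 26.2 CPM (median 13.5) at E16 (-2.82 ± 0.20, adjusted p = 1.84e-09). Ptbp1, the splicing repressor of progenitors, fell by 0.94 on the log2 scale (SE 0.12, adjusted p = 3.94e-06), whereas its neuronal paralog Ptbp2 changed by -0.25 ± 0.16 and did not pass the threshold (adjusted p = 0.207). Celf5 and Nova2, both neuronal RNA-binding protein genes, rose by 1.68 ± 0.14 and 1.65 ± 0.18, and the broadly expressed Elavl1 changed by -0.94 ± 0.10.

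**Figure D3:**
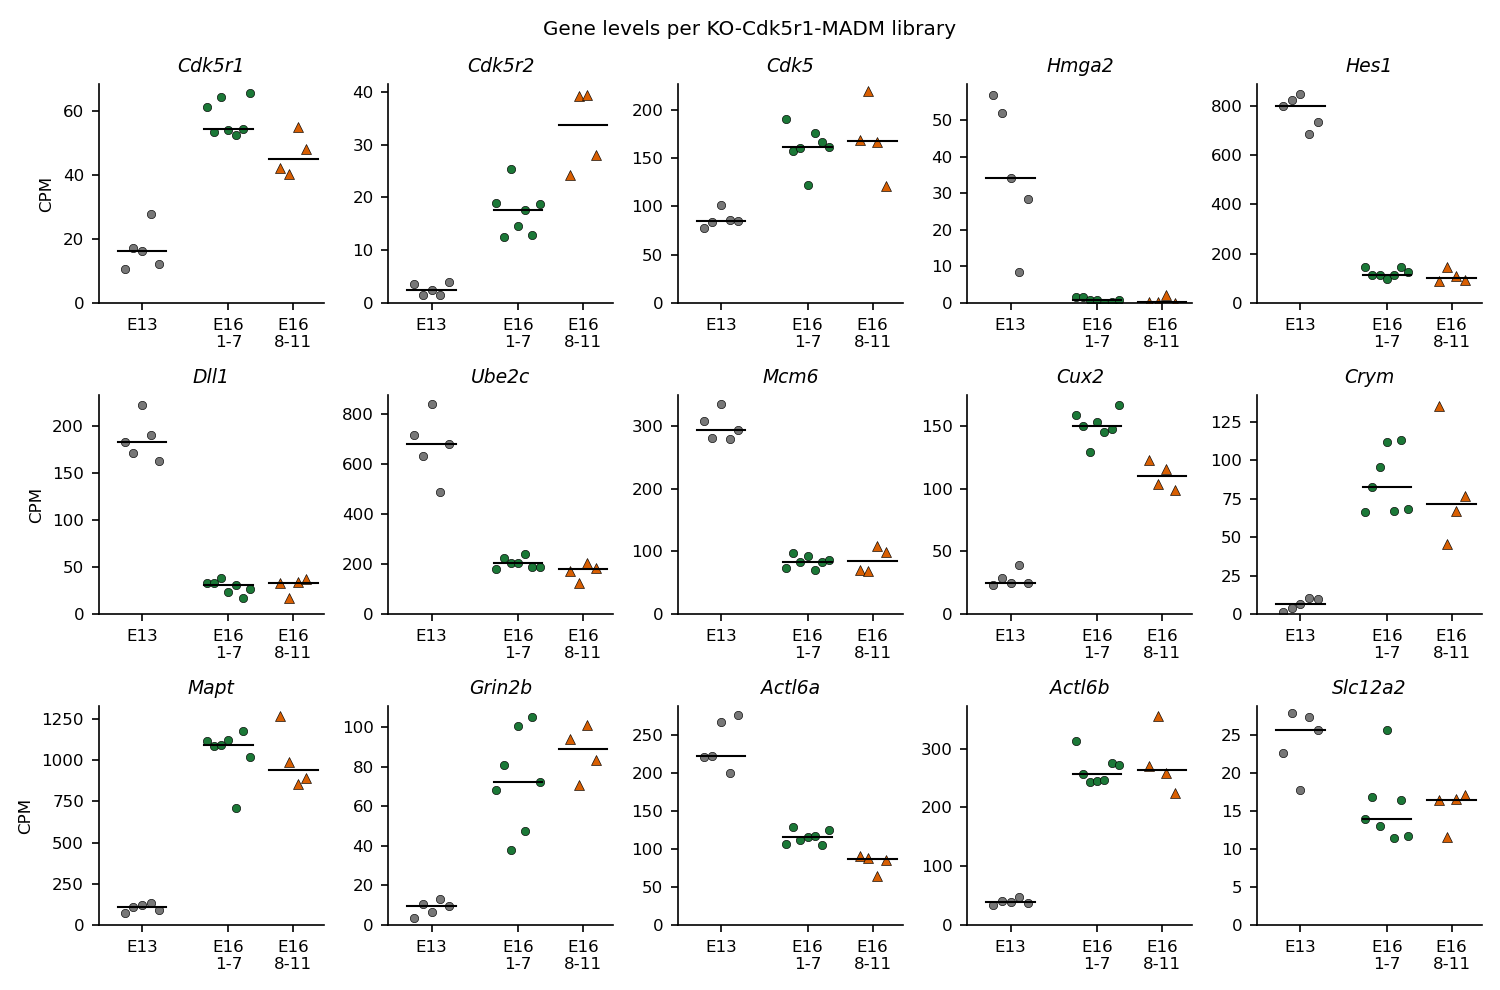
CPM of 15 genes in each KO-Cdk5r1-MADM library (grey circles, E13; green circles, E16 replicates 1 to 7; orange triangles, E16 replicates 8 to 11; bars, medians). The E13 and E16 libraries are separate for 14 of the 15 genes and overlap for Slc12a2, and replicates 8 to 11 lie below replicates 1 to 7 for Cux2 and Actl6a.

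Most tested genes of the synaptic, receptor and channel lists rose. Among synaptic vesicle and release genes, 39 of 59 tested rose and 3 fell (median 1.64), and 39 and 3 of 58 did without replicates 8 to 11, of which 37 and 2 were called in both fits. Rab3a, a vesicle GTPase, was at 138, 167, 177, 234 and 230 CPM at E13 and at 516 to 807 CPM (median 681) at E16 (1.98 ± 0.13, adjusted p = 8.11e-10). The vesicle protein genes Syt5 and Cplx1 rose by 3.10 ± 0.22 and 2.94 ± 0.23. Of 41 tested postsynaptic genes, 27 rose and 2 fell (median 1.15), and 27 and 3 did without replicates 8 to 11. Among those that rose were Nrxn2 (2.45 ± 0.24), Nlgn2 (1.45 ± 0.14), Nlgn3 (1.19 ± 0.13) and Dlgap4 (1.15 ± 0.11), which encode adhesion and scaffold proteins of synapses.

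Of 34 tested glutamate and GABA receptor genes, 25 rose and 2 fell (median 1.96), and without replicates 8 to 11 it was 22 and 2 of 29. Grin2b, the NMDA receptor subunit that predominates before birth, was at 3.79, 10.8, 6.47, 13.1 and 9.50 CPM at E13 and at 37.9 to 105 CPM (median 80.9) at E16 (3.29 ± 0.29, adjusted p = 2.95e-08). The obligatory subunit gene Grin1 rose by 3.63 ± 0.35, the GABA-B receptor gene Gabbr1 by 1.83 ± 0.15 and the metabotropic receptor gene Grm2 by 2.95 ± 0.34. Grin2d rose by 1.78 ± 0.56 (adjusted p = 0.0127) with overlapping ranges, and by 1.18 without replicates 8 to 11. Of 51 tested voltage-gated channel genes, 33 rose and 0 fell (median 1.5), and 35 of 49 rose without replicates 8 to 11. Scn3b, an auxiliary sodium channel subunit gene, and the potassium channel gene Kcnc1 rose by 2.83 ± 0.24 and 2.65 ± 0.26. The chloride transporters that set the sign of the GABA response were less clear. The importer gene Slc12a2 fell by 0.53 on the log2 scale (SE 0.20, adjusted p = 0.0357), and the exporter gene Slc12a5 rose by 2.20 ± 0.72 (adjusted p = 0.0163). Slc12a5 was at 2.71 to 4.10 CPM at E13, at 1.83 to 8.22 CPM in E16 replicates 1 to 7 and at 9.48 to 47.3 CPM in replicates 8 to 11, and without the latter its call was lost (0.76, adjusted p = 0.072).

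**Figure D4:**
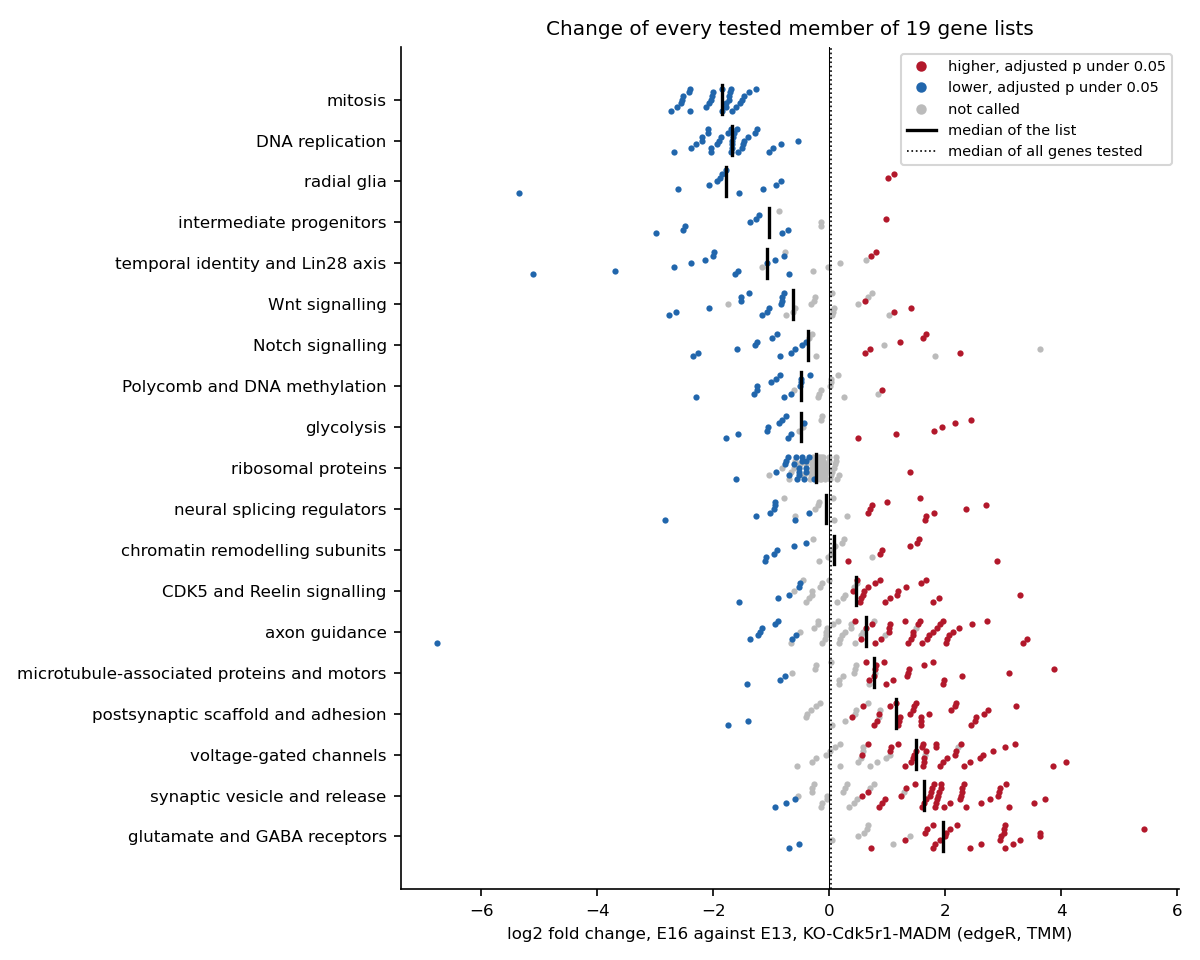
Log2 fold change from E13 to E16 of each tested member of 19 gene lists (red, called higher; blue, called lower; grey, not called; thick bars, list medians; dotted line, median of all tested genes at 0.02). All members of the mitosis and DNA replication lists lie below 0, and the medians of the synaptic vesicle, channel and receptor lists lie between 1.5 and 1.96.

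The cytoskeleton through which CDK5 acts on migration also shifted. Of 33 microtubule-associated proteins and motors, 18 rose and 3 fell (median 0.77), and 20 of 32 rose and 3 fell without replicates 8 to 11. Dync1i1, a neuronal dynein intermediate chain gene, was at 6.95, 8.29, 8.35, 13.7 and 6.07 CPM at E13 and at 78.4 to 185 CPM (median 114) at E16 (3.87 ± 0.25, adjusted p = 6.38e-10). The stathmin-family genes Stmn4 and Stmn3 and the plus-end binding protein gene Mapre3 rose by 3.09 ± 0.18, 2.29 ± 0.17 and 1.80 ± 0.14. Of 14 tested tubulin genes, 6 rose and 4 fell (median 0.31, and 0.12 without replicates 8 to 11). Tubb4a, Tubb2a and Tuba1a rose by 2.59 ± 0.15, 2.37 ± 0.24 and 1.6 ± 0.14, and the gamma-tubulin gene Tubg2 by 2.96 ± 0.37. Tubulin genes are near-identical over much of their length and only uniquely mapping reads were counted, so levels of single members are uncertain.

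In the list of CDK5 and Reelin signalling, 19 of 38 tested genes rose and 5 fell (median 0.45), and 21 and 5 did without replicates 8 to 11. Dpysl3 and Stmn1, which encode cytoskeletal proteins that are phosphorylated in growing neurons, were at 568 to 897 and 81.2 to 105 CPM at E13 and at 1103 to 1920 and 137 to 188 CPM at E16 (1.17 ± 0.12 and 0.96 ± 0.10). Nde1, a dynein regulator of dividing progenitors, was at 145 to 192 CPM at E13 and 22.9 to 80.5 CPM at E16 (-1.55 ± 0.18, adjusted p = 6.79e-07). No E16 library overlapped with an E13 library for any of the 3. The Reelin receptor gene Vldlr rose by 1.18 ± 0.24 (adjusted p = 4.03e-04). Dab1, the adaptor through which Reelin acts, changed by 0.43 ± 0.32 (adjusted p = 0.275), and by 0.76 (adjusted p = 4.0e-03) without replicates 8 to 11. Vldlr and Dab1 were named after their values were seen. Calpains cleave p35, which these cells lack, to p25. Of 5 tested genes of the calpain family (median 1.03) Capn5, Capns1 and Capn1 rose, by 2.64 ± 0.31, 1.03 ± 0.21 and 3.09 ± 0.99. Which members act on p35 was not tested. Capn1 was at no more than 3.06 CPM in E16 replicates 1 to 7 and was not tested without replicates 8 to 11, when 2 of 4 genes rose.

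Cell surface and guidance genes rose more often than they fell. Of 65 tested axon guidance genes, 32 rose and 9 fell (median 0.63), and 33 of 64 rose and 11 fell without replicates 8 to 11. The semaphorin genes Sema6b and Sema6c rose by 3.33 ± 0.33 and 1.79 ± 0.17. Robo3, the receptor gene that lets axons cross the midline, was at 24.0, 12.8, 8.35, 10.5 and 9.50 CPM at E13 and at 0 to 0.433 CPM at E16, with a median of 0 (adjusted p = 6.98e-08). Of 82 tested cell adhesion genes, 33 rose and 18 fell (median 0.48), and 35 of 78 rose and 23 fell without replicates 8 to 11 (median 0.31), with the cadherin-family gene Celsr3 at 1.81 ± 0.16. Extracellular matrix genes depended on the libraries taken. Of 73 tested, 22 rose and 14 fell with all libraries (median 0.31), but 17 rose and 22 fell without replicates 8 to 11 (median -0.41). The proteoglycan genes Spock1, Sdc3 and Ncan rose by 3.87 ± 0.32, 2.30 ± 0.23 and 1.31 ± 0.19, and by 3.57, 2.24 and 1.43 without those replicates.

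The genes with the largest changes among those with separate groups and a mean of at least 20 CPM in the higher group included several of glia. Aldh1l1, an astrocyte marker, was at 0, 0.502, 0.209, 2.26 and 1.06 CPM at E13 and at 28.6 to 119 CPM (median 74.8) at E16 (6.53 ± 0.54, adjusted p = 1.63e-08). Tnc, a matrix glycoprotein gene of late radial glia, went from 2.32, 1.51, 1.88, 10.0 and 1.58 CPM to 44.1 to 173 CPM (4.97 ± 0.46, adjusted p = 8.13e-08). The oligodendrocyte lineage factor gene Olig1 was at 0 to 2.74 CPM at E13, at 6.17 to 42.9 CPM in E16 replicates 1 to 7 and at 106 to 287 CPM in replicates 8 to 11, and its log2 fold change of 5.94 ± 1.26 became 3.98 without the latter. In the list of late radial glia and astrocytes, 9 of 13 tested genes rose and 2 fell (median 1.69), and 9 rose and 3 fell without replicates 8 to 11, with the GABA transporter gene Slc6a11 at 4.83 ± 0.40 and the growth factor receptor gene Fgfr3 at -1.86 ± 0.18.

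The other genes at the top had varied known functions. Tac2, a neuropeptide precursor gene, was at 0 to 1.04 CPM at E13 and at 12.6 to 53.6 CPM at E16 (adjusted p = 2.69e-08), and Slco1c1, a thyroid hormone transporter gene that is also the called member of the endothelial list, at 0 to 1.44 and 12.3 to 50.7 CPM (adjusted p = 1.17e-07). Sla and Clstn2, which encode an adaptor protein and a synaptic cadherin-type protein, rose by 5.73 ± 0.56 and 5.23 ± 0.48, and the retinol-metabolism gene Dhrs3 by 4.99 ± 0.43. Npas4, an activity-dependent transcription factor gene, was at 0 to 1.85 CPM at E13, at 2.41 to 30.5 CPM in E16 replicates 1 to 7 and at 96.3 to 124 CPM in replicates 8 to 11. At the other end, Cckar, a cholecystokinin receptor gene, was at 24.6, 23.1, 20.0, 20.5 and 33.8 CPM at E13 and at 0 to 1.52 CPM at E16, with a median of 0 (adjusted p = 7.07e-07). Dmrt3, another doublesex-family factor gene, was at 181 to 247 CPM at E13 and at 0 to 24.7 CPM at E16 (-3.70 ± 0.39), and the retinoic acid-binding protein gene Crabp2 at 46.9 to 122 and 0 to 20.9 CPM (-4.16 ± 0.71, and -6.40 without replicates 8 to 11). The remaining members that fell most were Prr15 (-3.64 ± 0.30), Jph1 (-3.64 ± 0.43), the kinetochore gene Knl1 (-3.15 ± 0.49), the chromatin remodeller gene Hells (-3.14 ± 0.29) and the potassium channel gene Kcnk5 (-3.12 ± 0.52).

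The change in KO-Cdk5r1-MADM was compared with that in control-MADM (8 libraries at E13, 12 at E16) and Cdk5r1-MADM (6 and 7) in a fit of all 3 genotypes. It kept E16 replicates 8 to 11, and its counts, overlaps and medians are given only with them. In this fit 3653 of 12794 genes rose (28.6%) and 3422 fell (26.7%) in KO-Cdk5r1-MADM, against 3453 (27%) and 3215 (25.1%) in control-MADM and 2954 (23.1%) and 2758 (21.6%) in Cdk5r1-MADM. KO-Cdk5r1-MADM and control-MADM shared 2860 genes that rose (78.3% of the former and 82.8% of the latter) and 2477 that fell (72.4% and 77%), and 2 genes were called in opposite directions. For the mitosis list the median log2 fold change was -1.85 in KO-Cdk5r1-MADM and -1.52 in control-MADM, for DNA replication -1.68 and -1.43, for radial glia -1.79 and -1.50, and for synaptic vesicle genes 1.64 and 1.17. The medians of the upper-layer list were 0.62 and 1.30. Upper-layer markers summed to 1183 to 1520 CPM in E16 replicates 8 to 11 and to 2096 to 2962 CPM in replicates 1 to 7. In control-MADM at E16 the sum was 1981 to 3250 CPM. In the fit of KO-Cdk5r1-MADM alone, the upper-layer median was 0.63 with replicates 8 to 11 and 0.85 without them. None of the members of these lists was called as changing differently between the genotypes.

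In edgeR the difference in change itself passed the threshold for 5 of 12794 genes (0.0391%). All of them had a larger increase in KO-Cdk5r1-MADM, and 0 genes passed in the opposite direction. At an unadjusted p below 0.05 there were 1756 genes (13.7%) in edgeR. DESeq2 called differences in both directions, 49 higher and 11 lower in KO-Cdk5r1-MADM. The values that follow are from edgeR unless DESeq2 is named. Neurl1b, which encodes an E3 ubiquitin ligase of Notch ligands, rose by 2.56 in KO-Cdk5r1-MADM and by 1.09 in control-MADM, a difference of 1.47 ± 0.28 and the calmodulin-binding transcription activator gene Camta2 by 0.93 ± 0.18 (adjusted p = 0.0215 for both). Tbc1d24, a gene of synaptic vesicle trafficking, differed by 1.07 ± 0.21 (adjusted p = 0.0229) and the amino acid transporter-family gene Slc7a4 by 1.53 ± 0.32 (adjusted p = 0.0340). In KO-Cdk5r1-MADM alone, Neurl1b was at 5.02 to 8.61 CPM at E13 and at 28.2 to 56.0 CPM at E16, and Tbc1d24 at 13.2 to 20.1 and 37.4 to 64.1 CPM, without overlap. Without E16 replicates 8 to 11 and the control-MADM E16 library with the same markers (replicate 12), edgeR called 0 genes, with 1278 at an unadjusted p below 0.05, and the differences were 1.33 for Neurl1b, 0.85 for Camta2, 1.01 for Tbc1d24 and 1.20 for Slc7a4. Against Cdk5r1-MADM the difference passed the threshold for 0 genes in edgeR and 2 in DESeq2, with 997 (7.79%) at an unadjusted p below 0.05 in edgeR.

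**Figure D5:**
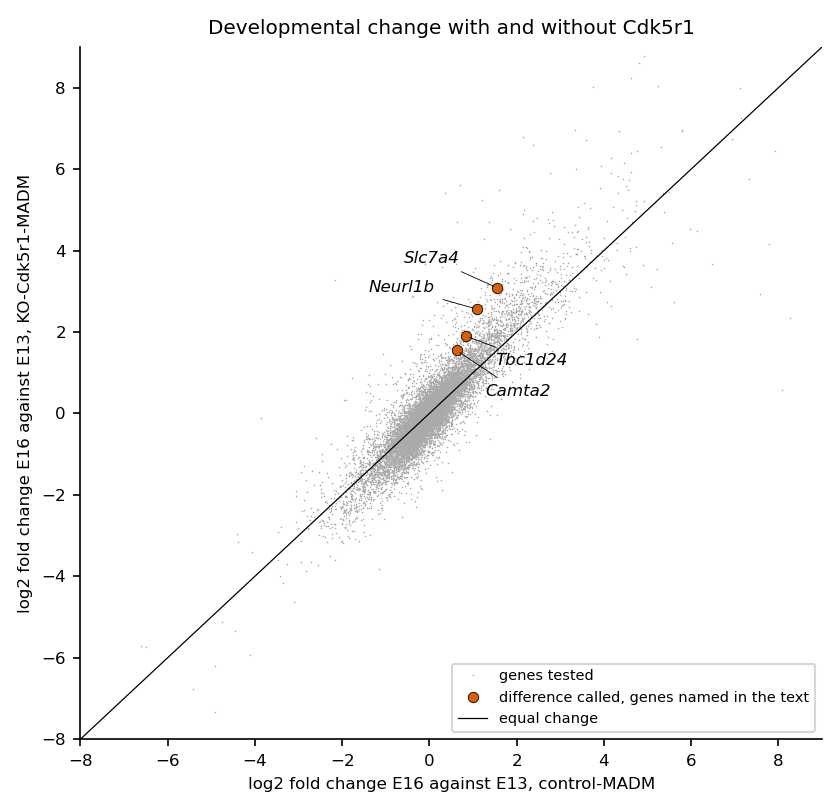
Log2 fold change from E13 to E16 of each tested gene in KO-Cdk5r1-MADM (vertical axis) against control-MADM (horizontal axis), with the line of equal change. The named genes whose change differed between the genotypes (orange) all lie above the line, for example Slc7a4 at 3.09 in KO-Cdk5r1-MADM and 1.55 in control-MADM.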

How the data were processed

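Gene counts were compared between 5 E13 and 11 E16 libraries of KO-Cdk5r1-MADM, with groups taken from the labels. The authors aligned reads with STAR to mm10, kept reads that mapped uniquely and deposited whole-number counts per gene; the unstranded counts were used, so antisense and overlapping genes cannot be told apart. Gene names and coordinates came from GENCODE vM21, which matched 53274 of 53379 identifiers when version numbers were ignored. The deposited counts were tested with edgeR 4.0.16 in R 4.3.3 (quasi-likelihood F-test, TMM, Benjamini-Hochberg), keeping genes with a mean count above 10; libraries under 50% uniquely mapped reads, a minimum taken from the paper's methods, were left out of the fit of 3 genotypes, as were those under 1e+05 gene counts, which left 49 libraries. The paper also left out libraries for their place in a principal component plot without naming them, which was not done here. CPM are counts per 1000000 reads assigned to genes. Adjusted p below 0.05 was called. Levels of single E16 genes are given as lowest, median and highest. Named genes were Cdk5r1, Cdk5r2 and Cdk5; the 10 largest changes each way among called genes without overlap and with at least 20 CPM; the 4 list members with the smallest adjusted p (all members of lists with at most 8 tested); the genes called between genotypes; and known subunit switches. A few genes that meet these rules are not reported here. The members and gene lists were chosen with earlier results of these data known, and no list was tested as a set. Alternatives were other normalizations (RLE, upper quartile), DESeq2 1.42.0, other count minimums, thinned counts, a covariate, a replicate block and leaving out libraries. The fits were tested on simulated data. No library pair of an age agreed within sampling noise (smallest chi-square per degree of freedom 4.79 over 65 pairs). Promoter sequences came from RefSeq (GRCm38.p6), and figures were drawn with matplotlib 3.10.9 in Python 3.11.15.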

Additional observations from a re-analysis of the deposited data

Results flagged for a closer look

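Of 187 sets of 5 E13 values examined, 16 had a highest or lowest library that lay far from the others, measured as its gap to the nearest library divided by the range of all 5. For independent values with a normal spread, the cut-off used (0.71) is passed in about 1 in 20 sets. CPM need not spread this way and all sets come from the same 5 libraries, so the 16 cannot be set against this rate. In 12 of the 16 the library was E13 replicate 4. It was the highest for Tnc (10.0 CPM against 1.51 to 2.32, gap over range 0.905), Olig2 (7.18 against 1.06 to 2.53, 0.76), Pdgfrb (7.58 against 0.626 to 1.76, 0.837), Col1a2 (27.5 against 2.50 to 8.54, 0.758), Col1a1 (61.5 against 0.632 to 6.03, 0.911), Cplx1 (35.1 against 16.3 to 18.6, 0.88), Scn3b (22.8 against 9.60 to 12.1, 0.807), Slc7a4 (15.6 against 4.84 to 6.86, 0.812) and the summed markers of meningeal fibroblasts (137.4 CPM against 8.00 to 39.7, 0.755). It was the lowest for Gadd45g (374 CPM against 765 to 849, 0.823), Ccna2 (289 against 330 to 346, 0.712) and Rps27l (127 against 193 to 216, 0.741). Replicate 1 was the highest for Robo3 (24.0 CPM against 8.35 to 12.8, 0.715), replicate 2 the highest for Lum (6.28 against 0 to 1.44, 0.771) and the lowest for Fosl2 (5.53 against 8.18 to 9.06, 0.753), and replicate 5 the highest for Rest (148 against 106 to 116, 0.759).

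The change from E13 to E16 differed between KO-Cdk5r1-MADM and control-MADM, by the test of the difference in edgeR, for Camta2 (0.927), Neurl1b (1.47), Slc7a4 (1.53) and Tbc1d24 (1.07), given as differences of log2 fold changes.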

How the results depend on the processing

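The counts of 3334 genes higher and 2802 lower became 3530 and 3020 with DESeq2, 3294 and 2868 with RLE, 3223 and 2960 with upper-quartile normalization, 2937 and 2923 with no count minimum, 3086 and 2569 with a covariate for reads that fell outside genes, and 2539 and 2342 with all libraries thinned to 1094174 counts. The count past a log2 fold change of 1 was 1212 with a mean count above 50. Leaving out 1 library at a time gave 2837 to 3403 higher (1662 to 1918 past 1) and 2437 to 3157 lower (1183 to 1387 past -1). Same-numbered E13 and E16 libraries did not deviate together (correlations -0.128 to 0.155), so the numbers do not pair them. With a replicate block over the 5 shared numbers, 3025 genes were higher (1546 past 1) and 2908 lower (1497 past -1), and of the 189 named genes tested there 9 changed sign, of which Lhx5 (-2.05) and Col1a2 (-2.72) were called. Without E16 replicates 8 to 11, an alternative chosen after seeing the data, 191 of the 208 named genes were tested. Of these 183 kept their sign, Cxcr4 (-1.01), Col1a2 (-3.11), Col3a1 (-3.85) and Col1a1 (-3.14) changed sign and were called, and 4 others (Trp73, Reln, Hbb-bh1 and Dcn) changed sign without being called in either fit. The summed upper-layer markers at E13 were 2100.3 with TMM-scaled CPM. The 5 differences from control-MADM became 60 with DESeq2, 0 with no count minimum, 11 above a mean count of 50, 0 with no minimum of uniquely mapped reads, 16 with the covariate, 2 with the replicate block, 0 with only these 2 genotypes and 0 without the libraries that stood apart. Leaving out 1 library gave 0 to 137, with 137 without KO-Cdk5r1-MADM E13 replicate 4, 0 without replicate 1, 2 or 3 and 2 without 5; 38, 25 and 9 without KO-Cdk5r1-MADM E16 replicate 4, 2 or 7; 8, 8 and 10 without control-MADM E13 replicate 1, 5 or 7; and 12, 8 and 10 without control-MADM E16 replicate 1, 2 or 12. The 0 differences from Cdk5r1-MADM became 2 with DESeq2, 1 with the covariate, 1 with only these 2 genotypes, 1 without the libraries that stood apart, and 0 to 8 leaving out 1 library, with 8 without KO-Cdk5r1-MADM E13 replicate 4. The cause was not tested. All KO-Cdk5r1-MADM libraries had mt-Nd3 at 0.914 CPM or less, whereas it was above 3 CPM in 3 of 6 E13 and 7 of 7 E16 libraries of Cdk5r1-MADM and in 3 of 8 and 6 of 12 libraries of control-MADM. With this property as a covariate, an alternative chosen after seeing the data, 5 genes differed from control-MADM and 0 from Cdk5r1-MADM (887 at an unadjusted p below 0.05, both in edgeR).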

Other observations

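Metabolic and housekeeping groups changed less uniformly. Of 20 tested glycolysis genes, 10 fell and 6 rose (median log2 fold change -0.49), and 13 fell and 6 rose without E16 replicates 8 to 11. The hexokinase genes exchanged: Hk2 was at 97.7, 77.4, 74.5, 69.1 and 103 CPM at E13 and at 16.1 to 27.4 CPM at E16 (-1.79 ± 0.15, adjusted p = 1.05e-08), and Hk1 was at 62.3, 37.7, 32.6, 60.9 and 42.0 CPM at E13 and at 135 to 213 CPM at E16 (1.95 ± 0.16, adjusted p = 1.52e-08). Neither had overlapping groups. The lactate dehydrogenase gene Ldha and the triosephosphate isomerase gene Tpi1 changed by -1.07 ± 0.10 and -0.86 ± 0.09. Of 23 cholesterol synthesis genes, 7 fell and 5 rose (median -0.13; 8 and 5 without those replicates), with Tm7sf2 at 1.20 ± 0.17 and Insig1, a regulator of the pathway, at -0.55 ± 0.13. Of 80 tested ribosomal protein genes, 20 fell and 1 rose (median -0.22), and 33 fell and 0 rose without E16 replicates 8 to 11. Many of them have processed pseudogenes, so that single members are uncertain.

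Immediate early and stress genes included 7 of 21 that rose and 5 that fell (median 0.64), with 7 and 7 of 20 and a median of -0.15 without E16 replicates 8 to 11. Fosb was at 2.50 to 16.6 CPM at E13, at 20.6 to 85.6 CPM in E16 replicates 1 to 7 and at 182 to 270 CPM in replicates 8 to 11. The embryonic globin gene Hbb-y was at 1.90, 1.26, 72.6, 88.4 and 114 CPM at E13 and at 0 to 3.42 CPM at E16, whereas the adult globin gene Hbb-bs was at 0.632, 1.00, 40.3, 28.3 and 6.6 CPM at E13, at 0.294 to 384 CPM in E16 replicates 1 to 7 and at 1431 to 3423 CPM in replicates 8 to 11. Globin genes of a cluster share sequence, so that their single levels are uncertain. The Cajal-Retzius list had 1 of 8 tested genes higher and 1 lower (median 0.91), and 1 and 2 of 5 without replicates 8 to 11 (median -0.67). Ebf2 was at 5.74 to 22.3 CPM at E13 and at 0 to 4.59 CPM at E16, and Calb2 rose by 2.11 ± 0.53, which was 1.28 without replicates 8 to 11. Reln, the defining gene of these cells, was at 16.4 to 26.0 CPM at E13, at 4.15 to 34.4 CPM in E16 replicates 1 to 7 and at 19 to 109 CPM in replicates 8 to 11, and its change of 0.76 ± 0.69 did not pass the threshold (adjusted p = 0.382), nor did that of -0.67 without replicates 8 to 11 (adjusted p = 0.175). Among the markers of other cell types, 5 of 8 tested oligodendrocyte lineage, 1 of 5 endothelial and 1 of 6 meningeal fibroblast genes were called higher with all libraries, and 2 of 5, 1 of 3 and 0 of 4 without E16 replicates 8 to 11. In the latter fit 3 of the 4 meningeal genes were called lower.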
